A study of Mus musculus with 6 samples.

Results

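Tendon and cartilage-like genes were examined in whole skeletal muscle of aged and young mice. The set held 8 genes, chosen by name: the transcription factors Scx and Mkx and the products Tnmd, Chad, Comp, Thbs4, Cilp and Cilp2. All probe sets that the platform's gene table maps to exactly 1 of these symbols were taken, which gave 9 of the 45037 probe sets other than controls, for 8 of the 18193 genes named on the array. Scx had 2 probe sets and each other gene had 1. RNA came from the gastrocnemius, the large calf muscle, of male C57B1/6 mice with a normal karyotype, as 3 aged samples (Aged replicates 51, 52 and 53) and 3 young samples (Young replicates 1, 2 and 3), each on its own Affymetrix mouse array. No treatment or genetic change is given for either group, and neither age is stated in months. Nothing in the labels ties the arrays to separate animals. The p-values then measure the spread between these 6 samples alone, which may be technical.

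Tendon cells lay down parallel collagen fibrils that carry muscle force to bone, and in a limb muscle they sit at the fibre ends and along internal tendon sheets. Scleraxis (Scx), a basic helix-loop-helix factor, marks tendon and ligament progenitors, and the homeobox factor Mohawk (Mkx) supports collagen production in maturing tendon. Tenomodulin (Tnmd) is a membrane glycoprotein of mature tendon cells whose expression depends on scleraxis. The remaining products are secreted into the matrix of cartilage, tendon or both. In a whole-muscle extract fewer cells of a type and less RNA per cell cannot be told apart.

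Scleraxis binds E boxes, the 6-base motif CANNTG, and the promoters of 5 of the 8 genes were at hand in RefSeq (build GRCm38.p6), from 250 bases before to 50 after the start. The promoters of Tnmd (chrX:133850758-133851057, + strand), Thbs4 (chr13:92794769-92795068, - strand) and Cilp (chr9:65264930-65265229, + strand) are shown because these 3 products had the same order of young arrays, described further on. Capitals mark every E box. The motif reads the same on both strands, and matches were allowed to overlap.
Tnmd: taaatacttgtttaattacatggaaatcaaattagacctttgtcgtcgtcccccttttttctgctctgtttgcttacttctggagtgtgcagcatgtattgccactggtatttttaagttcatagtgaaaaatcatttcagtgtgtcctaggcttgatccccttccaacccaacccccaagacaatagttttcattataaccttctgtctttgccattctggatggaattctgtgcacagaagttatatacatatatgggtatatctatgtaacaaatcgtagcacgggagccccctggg
Thbs4: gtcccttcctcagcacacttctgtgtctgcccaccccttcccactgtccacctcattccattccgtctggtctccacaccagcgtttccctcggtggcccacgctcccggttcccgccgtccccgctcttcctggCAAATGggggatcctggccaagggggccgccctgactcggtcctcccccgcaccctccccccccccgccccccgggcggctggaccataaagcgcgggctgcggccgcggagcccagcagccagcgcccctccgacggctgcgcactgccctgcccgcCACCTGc
Cilp: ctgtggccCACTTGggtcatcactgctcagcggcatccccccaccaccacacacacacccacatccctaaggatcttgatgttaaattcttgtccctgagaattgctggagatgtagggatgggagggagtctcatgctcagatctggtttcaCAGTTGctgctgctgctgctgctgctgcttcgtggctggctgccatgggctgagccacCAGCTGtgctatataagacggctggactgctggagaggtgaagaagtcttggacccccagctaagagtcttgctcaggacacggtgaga
The Tnmd window held 0 E boxes, the Thbs4 window 2 and the Cilp window 3. The Chad and Cilp2 windows, not shown, held 1 each. Of 32851 promoters of this length 72.3% held at least 1 E box, 39.6% at least 2 and 17.6% at least 3. A match describes the letters only.

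Aged muscle had less signal for the tendon product Tnmd, and none of the other 7 genes passed the test. A change is the mean log2 signal of aged muscle less that of young muscle, and the error beside it is limma's standard error (n = 3 per group). Each adjusted p is limma's, with Benjamini-Hochberg adjustment over all 22519 probe sets bright enough to be tested. The threshold was 0.05. Of 8 tested probe sets of the set 1 passed and was lower in aged muscle. Over all tested probe sets 1.05% passed, made up of 0.742% lower and 0.311% higher in aged muscle. All 8 changes were negative, between -3.47 and -0.30 with a median of -0.76, where 49.5% of all tested probe sets were negative and the median change was 0.0079. Centring each array on its median moved the median change of all tested probe sets to -0.11, and the 8 changes stayed negative with that scaling and with quantile normalization. With the fluidics station as a covariate 5 of the 8 were negative, and 6 were with the control probe sets' 3 prime to 5 prime ratio in the fit. The signals of each probe set by array are plotted beside the changes.

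**Figure D1:**
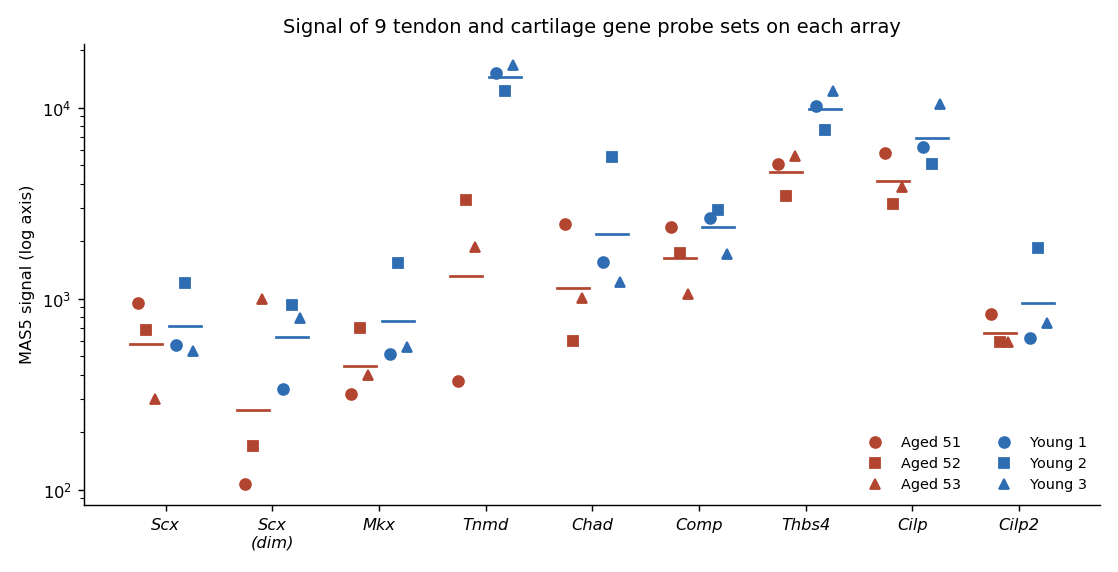
MAS5 signal (log axis) of the 9 probe sets on each array, with aged arrays in red on the left and young arrays in blue on the right of each gene. Horizontal lines are means of log2 signal (n = 3 per group), and the dim Scx probe set was not tested. The aged and young arrays do not overlap for Tnmd and Thbs4.

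**Figure D2:**
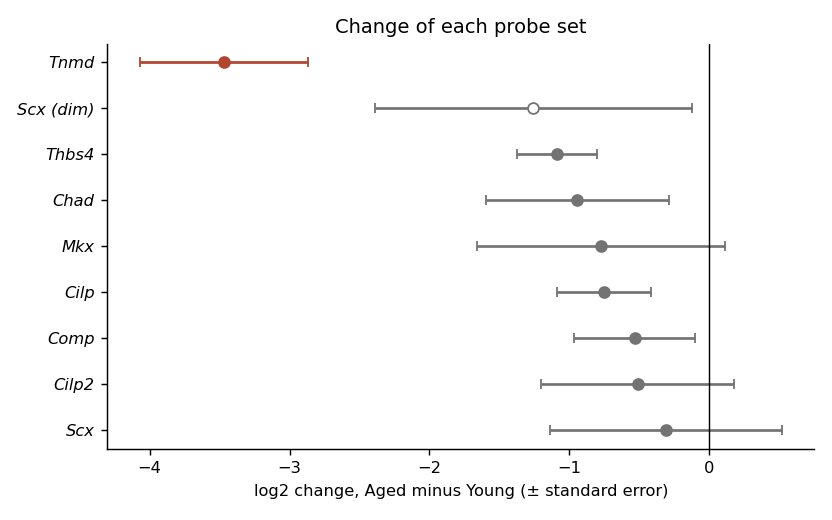
Log2 change, aged minus young, of each probe set with limma's standard error as the bar (n = 3 per group). Red marks the probe set that passed, Tnmd at -3.47, and the open symbol marks the dim Scx probe set, whose value comes from the fit without a filter.

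Several facts of the arrays bear on these values. Fluidics station 1 held Aged replicate 51 and all 3 young arrays, while Aged replicates 52 and 53 ran on station 2 under another protocol name. Values within station 1 therefore set 1 aged array against 3 young arrays, with the spread of aged muscle taken from the young arrays. The log2 ratio of 3 prime to 5 prime signal of the Gapdh and Actb control probe sets, a measure of RNA integrity, averaged 2.33 on aged and 1.75 on young arrays, with no overlap (exact permutation test, two-sided, p = 0.1, the smallest that 3 against 3 arrays allow). The tissue showed fibre markers at high signal. All 15 muscle fibre markers of the list used were tested, their summed signal was 2687400 to 3113900 on aged arrays and 3834200 to 4671900 on young arrays, and all 15 changes were negative, with a median of -0.63. An unadjusted p under 0.05 was seen for 10 of them, and 1, Myh2, the myosin heavy chain of type 2A fibres, passed (-2.38 ± 0.25, adjusted p = 0.000497). Without Aged replicate 53 the number that passed was 3. The brightest, the fast myosin heavy chain Myh4, was at -0.15 ± 0.26.

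Of the regulators, neither differed between the groups beyond the spread of the arrays. The brighter Scx probe set had signals of 951, 682 and 299.5 on Aged replicates 51, 52 and 53, against 574, 1202 and 529.9 on Young replicates 1, 2 and 3. The groups overlapped, with the highest signal on Young replicate 2 and the lowest on Aged replicate 53. The change was -0.30 ± 0.83 (adjusted p = 0.921), and this probe set is of a kind prone to cross-hybridisation. The other Scx probe set had signals of 107, 169.7 and 1001 on the aged arrays, against 336, 928 and 789 on the young arrays. Its mean log2 signal, 8.66, lay below the limit of 9.08 for testing, and in the fit without that limit its change was -1.26 ± 1.13 (adjusted p = 0.841). On the aged arrays both probe sets ran in opposite order: Aged replicate 53 was lowest on the first and highest on the second. The mean of both gave a change of -0.78 (exact permutation test, two-sided, p = 0.2). Without Young replicate 2 the change of the brighter probe set was 0.070, and within station 1 it was 0.41.

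Mkx had signals of 317, 700.1 and 400.2 on the aged arrays, against 512, 1545 and 559.9 on the young arrays. The young arrays spanned 3.02-fold, with Young replicate 2 highest, and Aged replicate 52 was above both other young arrays. The change was -0.77 ± 0.89 (adjusted p = 0.806). Without Young replicate 2 it was -0.26 and within station 1 it was -1.26. The mean log2 signal of Mkx, 9.19, lay just above the limit for testing.

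Tnmd had signals of 372, 3266 and 1863 on Aged replicates 51, 52 and 53, against 15120.0, 12171 and 16723 on Young replicates 1, 2 and 3. Every aged array lay far below every young array, the nearest pair being Aged replicate 52 and Young replicate 2. Tnmd was 11.1-fold higher in young muscle (-3.47 ± 0.60, adjusted p = 0.0135). The aged arrays spanned 8.78-fold among themselves and the young arrays 1.37-fold. A span at least as wide on the aged arrays was seen for 6.93% of all tested probe sets. The tested probe sets were also split into 5 groups by mean log2 signal over all arrays. An aged span of at least 8-fold was seen for 0.466% of the brightest group, to which Tnmd belongs. Tnmd is in that group through its young arrays, whose mean log2 signal was 13.83. Its aged arrays averaged 10.36, within the range of the middle group (10.031 to 10.701). In the middle group an aged span of at least 8-fold was seen for 5.49%. Within station 1, where Aged replicate 51 is the only aged array, the change was -5.29. Without Aged replicate 51 it was -2.56 ± 0.30 (adjusted p = 0.00158). The call was lost when any young array was left out (limma, adjusted p = 0.0656 without Young replicate 1, 0.0540 without Young replicate 2 and 0.0649 without Young replicate 3). It was also lost with robust eBayes (adjusted p = 0.0518), with the ratio of 3 prime to 5 prime signal as a covariate (-3.78, adjusted p = 0.133) or when the variance prior did not follow brightness (adjusted p = 0.317). The direction was the same in all of these.

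Thbs4, a secreted thrombospondin of tendon, muscle and the myotendinous junction, had signals of 5089.96, 3426 and 5614 on the aged arrays, against 10139, 7621 and 12148 on the young arrays. Here too the groups did not overlap, and each was narrow, spanning 1.64-fold on aged and 1.59-fold on young arrays. Thbs4 was 2.12-fold higher in young muscle by its log2 means, and the change did not pass (-1.09 ± 0.29, adjusted p = 0.133). Tnmd and Thbs4 were the 2 of 8 tested probe sets whose groups did not overlap, where 16.2% of all tested probe sets had no overlap and 8.74% had every aged array below every young one. Under the alternatives tried the change of Thbs4 lay between -1.42 and -0.87, with an adjusted p between 0.0730 and 0.512, and within station 1 it was -0.94. The plot of both genes under each alternative shows the wide range for Tnmd beside the narrow range for Thbs4.

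**Figure D3:**
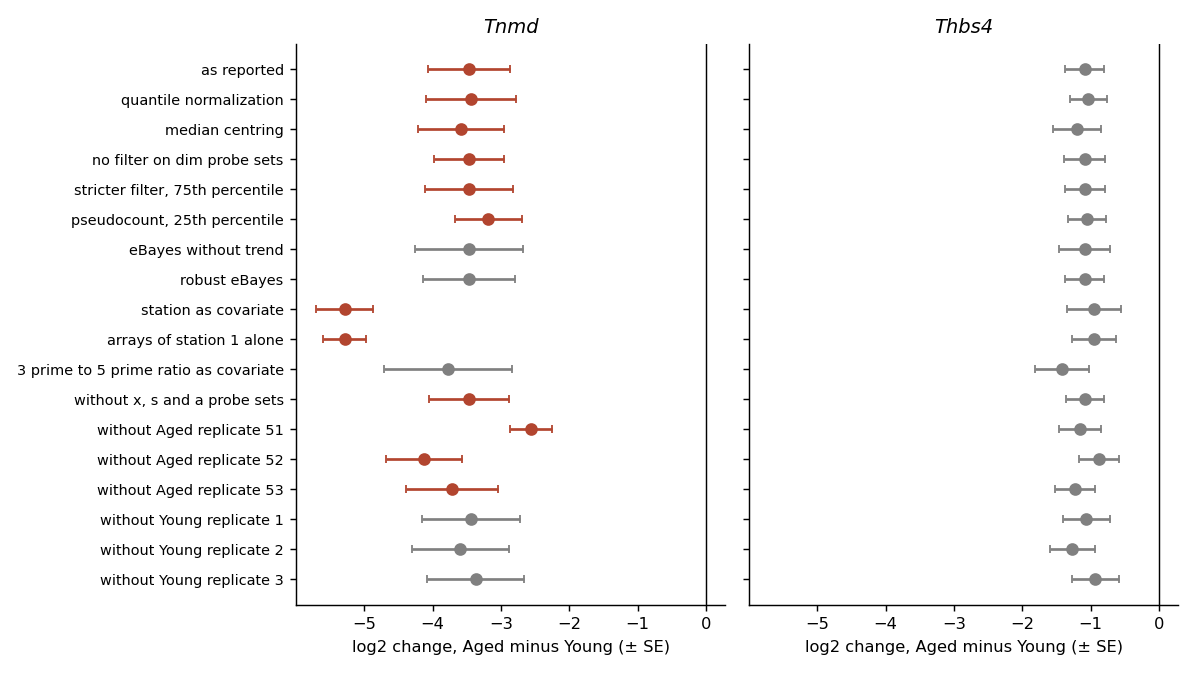
Log2 change, aged minus young, of Tnmd (left) and Thbs4 (right) with limma's standard error, as reported and under each alternative. Red points passed an adjusted p of 0.05 and grey points did not; all values are negative, from -5.29 to -2.56 for Tnmd and from -1.42 to -0.87 for Thbs4.

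Comp, a pentameric thrombospondin that binds collagen in cartilage and tendon, had signals of 2368, 1743 and 1054 on the aged arrays, against 2649, 2901 and 1712 on the young arrays. The groups overlapped, since Aged replicates 51 and 52 lay above Young replicate 3. The change was -0.53 ± 0.43 (adjusted p = 0.713). Within station 1 it was 0.0045, and with the ratio of 3 prime to 5 prime signal as a covariate it was 0.11.

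Chad, chondroadherin, a leucine-rich cartilage protein that binds collagen and integrin, had signals of 2461, 602 and 1006 on the aged arrays, against 1558, 5539.6 and 1219.6 on the young arrays. Young replicate 2 was 4.54-fold above the lowest young array, and Aged replicate 51 lay above both other young arrays. The change was -0.94 ± 0.65 (adjusted p = 0.663). It was -0.27 without Young replicate 2, -1.49 without Aged replicate 51 and 0.17 within station 1.

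Cilp, cartilage intermediate layer protein, a secreted matrix protein that binds TGF-beta, had signals of 5784, 3112 and 3852 on the aged arrays, against 6254, 5080.3 and 10390.4 on the young arrays. The overlap came from Aged replicate 51, which lay above Young replicate 2. The change was -0.75 ± 0.34 (adjusted p = 0.489). Its unadjusted p was 0.0464, and 3 of the 8 tested probe sets, Tnmd, Thbs4 and Cilp, had an unadjusted p under 0.05, as 10% of all tested probe sets did. Within station 1 the change of Cilp was -0.26.

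Cilp2, a close relative of Cilp, had signals of 832, 596 and 592 on the aged arrays, against 625, 1831 and 742 on the young arrays. Aged replicate 51 exceeded 2 of the 3 young arrays, and Young replicate 2 stood above all others. The change was -0.51 ± 0.69 (adjusted p = 0.833), and it was -0.035 without Young replicate 2.

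Whether regulators and products moved together was read from single arrays, as the deviation of each array's log2 signal from its group mean. With 3 arrays in a group these orders are a description. On the young arrays the set fell into a pair of patterns. Tnmd, Thbs4 and Cilp shared the order of Young replicates 3, 1 and 2 from high to low, an order held by 16.6% of all tested probe sets. The other 6 probe sets, both of Scx and those of Mkx, Chad, Comp and Cilp2, were highest on Young replicate 2, as were 34.1% of all tested probe sets. On that array the deviations were 1.34 for Chad, 1.02 for Mkx, 0.95 for Cilp2, 0.75 for the brighter Scx probe set and 0.30 for Comp. They were -0.26 for Tnmd, -0.36 for Thbs4 and -0.44 for Cilp. The count of 6 was the same after quantile normalization. Of the 15 muscle fibre markers 10 were also highest on Young replicate 2, and their part in these deviations was not tested.

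The aged arrays did not repeat this split. Tnmd was lowest on Aged replicate 51 by -1.82 and highest on Aged replicate 52 by 1.31. Mkx ran in the same order, with deviations of -0.49 and 0.65. Chad, Comp, Cilp, Cilp2 and the brighter Scx probe set were highest on Aged replicate 51 instead, by 1.11 for Chad and 0.54 for Comp. Thbs4 was highest on Aged replicate 53, by 0.28. After quantile normalization Aged replicate 51, at 0.22, was slightly above Aged replicate 53, at 0.20. Chad and Cilp2 each deviated in the opposite direction to Tnmd on all 6 arrays as deposited. After quantile normalization, tried once the data had been seen, Chad shared the direction of Tnmd on 1 array and Cilp2 on 2.

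**Figure D4:**
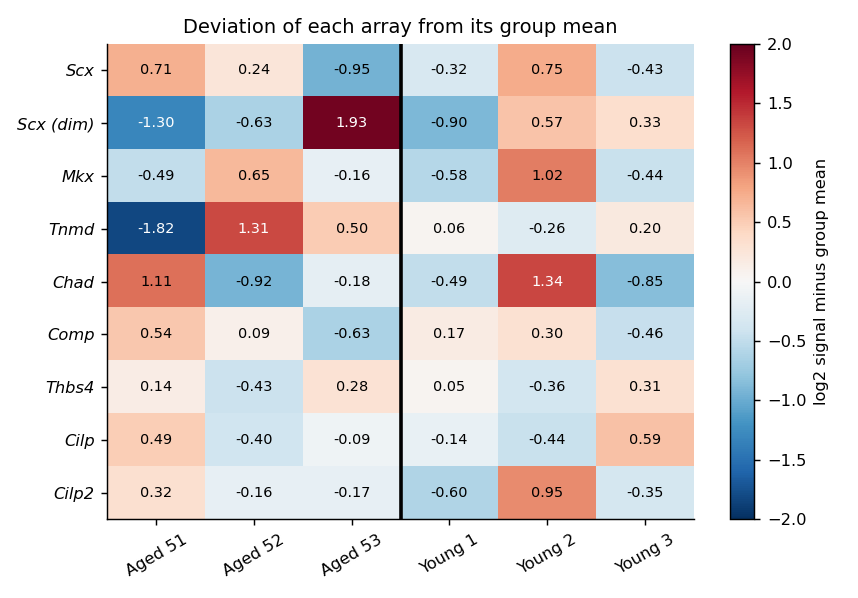
Deviation of each array's log2 signal from the mean of its group, for the 9 probe sets, with aged arrays left of the line and young arrays right of it. Red is above and blue below the group mean. On Young replicate 2 the Scx, Mkx, Chad, Comp and Cilp2 probe sets are above their mean and Tnmd, Thbs4 and Cilp below it.

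Taking 1 probe set per gene, the 12 pairs of a regulator and a product had the same order of young arrays in 3 pairs and the same order of aged arrays in 3. After quantile normalization these counts were 4 and 2. As deposited, any single order was held by 15.5% to 17.4% of all tested probe sets on young arrays. On aged arrays the share was 14.4% to 19%. Scx and Comp held the same order in both groups with either scaling, and 1 of all 28 pairs did so as deposited and 2 after quantile normalization. Over these 12 pairs both genes deviated in the same direction on 0 to 5 of 6 arrays, with a median of 3.5. Scx did so on 5 arrays with each of Chad, Comp and Cilp2, and Mkx on 4 with each of them. After quantile normalization the counts were 5, 5 and 4 for Scx and 3, 3 and 4 for Mkx. Among the lower counts, Scx and Tnmd deviated in the same direction on 1 of 6 arrays, Mkx and Tnmd on 2, and Mkx and Thbs4 on 0. After quantile normalization these last counts were 2, 4 and 2. Scx and Mkx deviated in the same direction on 5 of 6 arrays as deposited and on 4 after quantile normalization. Chad and Cilp2 did so on 6 as deposited and on 5 after quantile normalization. The signals of Scx and Mkx were among the dimmer tested ones, and in the dimmest of the 5 brightness groups the young arrays of a probe set spanned a median of 3.41-fold, where they spanned 1.36-fold in the brightest group.

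The genes most like Tnmd, Thbs4 and Comp were found by the root mean square difference of log2 signals over the 6 arrays, each probe set centred on its own mean, among 11762 other named genes. Nearest to Tnmd was the muscle LIM protein Csrp3 (difference 0.43), followed by Gadd45g (0.44), Pdgfrl (0.48) and Gpm6b (0.59). Csrp3 had signals of 255, 1619 and 1673 on the aged arrays, against 8121, 14004 and 9789.5 on the young arrays. The nearest of the set to Tnmd was Thbs4, at 1.61, which ranked 1077 of 11762.

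Nearest to Thbs4 were Cln6 (0.086), the collagen VI chain Col6a1 (0.18), Dennd6a (0.19) and Tceal9 (0.19), and of the set Cilp at 0.30 (rank 107). Col6a1 had signals of 2465, 1984 and 2658 on the aged arrays, against 5295, 5218 and 6362 on the young arrays, with no overlap (-1.25 ± 0.29, adjusted p = 0.0822). Nearest to Comp were the basement membrane collagen chain Col4a4 (0.068), Slx4ip (0.12), Plxdc1 (0.15) and D6Wsu163e (0.15), and of the set Scx at 0.33 (rank 188). Likeness over 6 arrays describes these arrays only.

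Of 28 tested genes of a list of tendon and fibril matrix genes 14 fell and 0 rose, with a median change of -1.44, where over all 11763 named genes tested 118 fell and 46 rose and the median was 0.0028. The other 14 did not pass. The greatest falls were those of the collagen chains Col1a1 (-5.71 ± 0.32), Col1a2 (-4.62 ± 0.22), Col3a1 (-3.89 ± 0.21) and Col5a2 (-3.13 ± 0.28). Within station 1 the median of the list was -1.30 and 12 fell. The count was 8 with the station or the ratio of 3 prime to 5 prime signal as a covariate, 9 without Young replicate 2, 6 of 19 without probe sets of the suffixes x, s and a, and 4 without the trend. The summed signal of the list was 157950 to 183930 on aged arrays and 1004300 to 1220000 on young arrays.

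Of 20 tested genes of tendon and limb connective tissue regulation 1 fell and 0 rose. The median was -0.07 as deposited, 0.038 within station 1 and 0.30 with the ratio of 3 prime to 5 prime signal as a covariate, and 0.16 without Aged replicate 53. With the station as a covariate 0 passed. The gene that fell was Ccn2, a matricellular target of TGF-beta (-3.44 ± 0.47, adjusted p = 0.00277). It had signals of 2657, 716 and 3560.1 on the aged arrays, against 19702, 20548 and 21369 on the young arrays. The brightest other gene of the list, Spry2, an inhibitor of growth factor signalling, was at -0.35 ± 0.24 (adjusted p = 0.657). Its other tested probe set was at 0.75.

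Of 15 tested genes of cartilage matrix and regulation 0 passed in limma, 2 had an unadjusted p under 0.05, and the median was -0.14 (0.029 without Aged replicate 51). The brightest were the transcription factor Sox6 (-0.14 ± 0.32) and the collagen IX chain Col9a1 (0.12 ± 0.46). Sox6 had 4 tested probe sets, from -0.45 to 0.72, and Col9a1 had 2, at 0.12 and 1.98. Some cartilage genes on the array, among them Col2a1, Col10a1, Matn1, Matn3, Hapln1 and Cnmd, had no probe set above the limit for testing. Acan and Sox9, named after their values were seen, were tested and did not pass. Acan was at 0.51 ± 0.50 (adjusted p = 0.764) and Sox9 at 0.71 ± 0.56 (adjusted p = 0.708). The 2 with an unadjusted p under 0.05, named after their values were seen, were the collagen XI chains Col11a1 (-2.47 ± 0.67, adjusted p = 0.149) and Col11a2 (-2.19 ± 0.91, adjusted p = 0.439), both with every aged array below every young one.

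Of 6 tested relatives of the set's genes 1 fell, Itm2a, a membrane protein with the BRICHOS domain that tenomodulin also carries (-2.62 ± 0.34, adjusted p = 0.00188). Its signals were 6400.3, 11274 and 21027 on the aged arrays, against 74626, 66810.0 and 70996 on the young arrays. Aged replicate 51 was the lowest aged array, as for Tnmd and for 35.5% of all tested probe sets. The median of these 6 was 0.39 as deposited, -0.17 within station 1 and -0.059 without Young replicate 1. The brightest other relative, the homeobox factor Irx1, was at 0.45 ± 0.57. Of 13 tested genes of the myotendinous junction Ankrd2, a stretch-responsive ankyrin repeat protein, fell (-2.13 ± 0.23, adjusted p = 0.000497), the others did not pass, and the median was -0.36. That median was -0.040 within station 1, -0.080 without Aged replicate 52 and -0.10 without Aged replicate 53. The giant sarcomere protein Ttn was at -0.11 ± 0.24. Some genes of this list had tested probe sets of opposite sign. Named after their values were seen, Col22a1 ranged from -2.21 to 0.27, Tln1 from -0.60 to 1.12 and Nes from -0.58 to 0.64. The Col22a1 probe set at -2.21 did not pass (limma, adjusted p = 0.0767), and the one that stood for the gene was at 0.27.

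**Figure D5:**
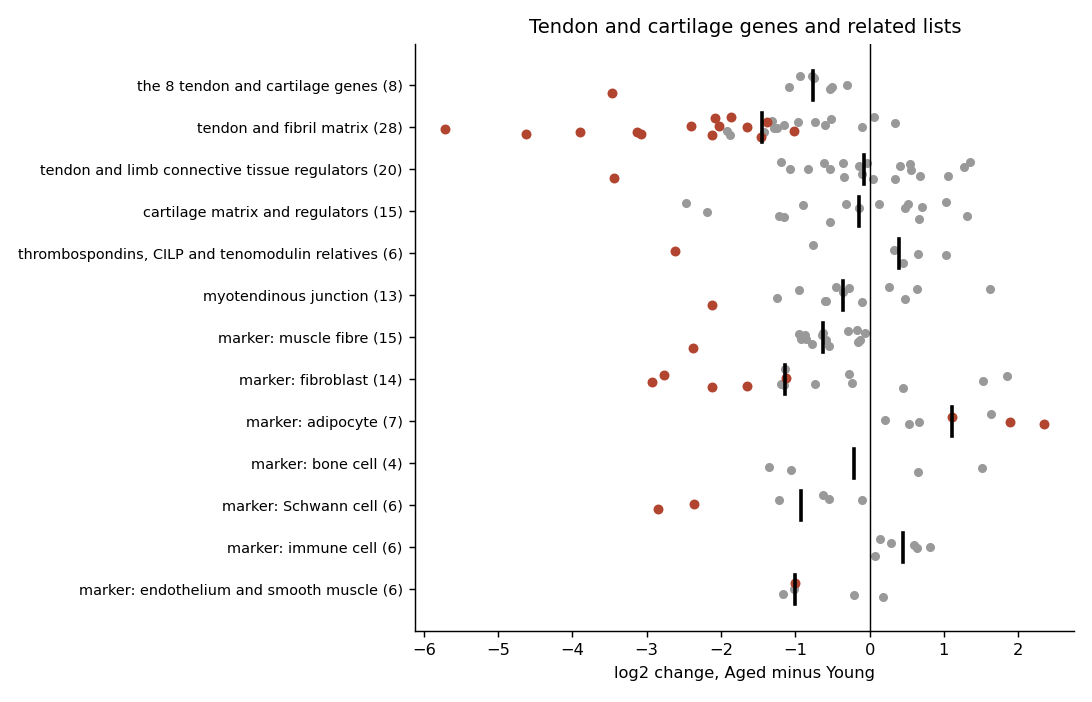
Log2 change, aged minus young, of each tested gene (1 probe set per gene) of the set, the related lists and the marker lists, with the number of genes in brackets. Red points passed an adjusted p of 0.05, grey points did not, and black bars are medians, -0.76 for the set and -1.44 for tendon and fibril matrix genes.

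Fibroblast, adipocyte, Schwann cell and smooth muscle lists each held markers that passed in the same contrast, and their part in the changes of the set was not tested. Without the trend 0 markers of these lists passed. Of 14 tested fibroblast markers 5 fell and 0 rose (median -1.14), against 2 that fell without Young replicate 1, 2 or 3 or with the 3 prime to 5 prime ratio as a covariate, and 3 without Aged replicate 52 or with the station as a covariate. The 5 included Mfap5 (-2.94), Fstl1 (-2.77), Pcolce (-2.13) and Cd34 (-1.65). Of the 14 changes 11 were negative. Fbln1 (1.85), Clec3b (1.52) and Gsn (0.44), named after their values were seen, were higher in aged muscle without passing. Pcolce, and Dcn, which did not pass, were also in the list of tendon and fibril matrix genes. The summed signal of the 14 fibroblast markers was 328450 to 370330 on aged arrays and 370910 to 409800 on young arrays. Gsn was the largest part of this sum, with 219470 to 262000 on aged arrays and 157460 to 191970 on young arrays. The sum therefore does not describe the other markers of the list. Of 7 tested adipocyte markers 3 rose, Retn, Adipoq and Fabp4 (2.35, 1.89 and 1.11). Fabp4 had 4 tested probe sets, between -0.63 and 1.11, of which 1 passed. The median of the 7 markers was 1.11. Within station 1 it was 0.74 and 1 rose, with the station as a covariate 0 rose, and with the 3 prime to 5 prime ratio as a covariate 1 rose. The count was 1 without Young replicate 2, and 2 without Young replicate 1, Young replicate 3 or Aged replicate 52. The adipocyte sum was 162350 to 276710 on aged arrays and 84557 to 97044 on young arrays. Of 6 tested Schwann cell markers the myelin genes Mbp (-2.85) and Pmp22 (-2.37) fell, with sums of 16128 to 20818 on aged and 58068 to 92528 on young arrays. Mbp had 7 tested probe sets, between -2.85 and 0.18, of which 4 passed.

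Of 4 tested bone cell markers 0 passed in limma and 1 had an unadjusted p under 0.05, Sp7 being at 0.65 and Ctsk at -1.36, with sums of 5193 to 6942 on aged and 5442 to 8063 on young arrays. The defining bone genes Ibsp, Dmp1 and Sost lay below the limit for testing. Of 6 tested immune cell markers 0 passed in limma and 0 had an unadjusted p under 0.05, with Csf1r at 0.29 and Adgre1 at 0.15 and sums of 65282 to 100070 on aged and 56086 to 73936 on young arrays. Of 6 markers of endothelium and smooth muscle Acta2 fell to 0.499 of its signal in young muscle and Rgs5 was at 0.501 of it without passing, with sums of 49343 to 53721 on aged and 87298 to 100500 on young arrays. Acta2 did not pass without Aged replicate 52, without any 1 of the young arrays, after median centring or with the 3 prime to 5 prime ratio as a covariate. All 3 blood markers on the array lay below the limit.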

How the data were processed

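Total RNA was labelled with biotin and hybridised to 6 arrays, per the labels' protocols. For every probe set the authors deposited a linear intensity, a MAS5 signal per the submitters' processing notes, which name no version. With the lowest and highest 2% of probe sets left out, the mean was 1500 on each array, so the arrays share a common scale that assumes alike means. The fluidics station came from the deposited run settings. The depth of an array has no count; the number of arrays limits the precision.

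Intensities were taken to log2 as deposited, without 64 control probe sets. Probe sets with a mean log2 signal below the median of all, 9.08 (a signal of 540), were not tested, leaving 22519. All 6 arrays were fitted with limma 3.58.1 in R 4.3.3 (lmFit, eBayes with trend, two-sided, Benjamini-Hochberg, threshold 0.05). The steps were tested on simulated data. There 0.311% of the probe sets given a 2-fold difference passed, 14.2% of those given 4-fold and 39.4% of those given 16-fold. Of the probe sets given no difference 0.00403% passed. A probe set that did not pass may therefore still differ between the groups. The gene table, updated through gene IDs (0 symbols changed), gives 34958 probe sets a single symbol and 932 more than 1. A gene stands for its brightest probe set. Single values were compared with exact permutation tests in scipy 1.17.1, and figures drawn with matplotlib 3.10.9.

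The 8 genes, the lists, the tests and the rule for named genes were chosen with earlier results of these data known. The text names all 8 genes, up to 4 genes of each list that passed with the greatest change (otherwise the brightest until 2 are named), and the 4 genes nearest to Tnmd, Comp and Thbs4. The fit was repeated with median centring, quantile normalization, no filter or a filter at the 75th percentile, a pseudocount of 219, eBayes without trend or robust, the station or the control probe sets' ratio of 3 prime to 5 prime signal as a covariate, station 1 alone, no probe sets with the suffix x, s or a, the mean of a gene's probe sets, and each array left out in turn.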

Additional observations from a re-analysis of the deposited data

How the results depend on the processing

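No paired analysis was possible because the aged and young arrays share no replicate number. Of 22519 tested probe sets 237 passed as reported, against 21 without the trend, 138 with the ratio of 3 prime to 5 prime signal as a covariate, 136 without probe sets of the suffixes x, s and a (16865 tested), 365 within station 1, and 124 to 342 with 1 array left out. Of the tested probe sets of the 8 genes 1 passed as reported (Tnmd), against 0 without the trend, 0 with robust eBayes, 0 with the ratio as a covariate and 0 to 1 with 1 array left out; under the other alternatives 1 passed. Of 81 genes of the 5 related lists 17 passed, against 4 without the trend, 10 with the station as a covariate, 11 with the ratio as a covariate, 9 without those suffixes (63 tested) and 12 to 17 with 1 array left out.

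Tnmd, Mkx, Thbs4, Cilp and Cilp2 were lower in aged muscle under every alternative that gave a value. Scx turned to 0.41 with the station as a covariate and within station 1, and to 0.64 with the ratio as a covariate, and it ranged from -0.66 to 0.17 with 1 array left out (0.17 without Aged replicate 53, 0.070 without Young replicate 2). Chad turned to 0.17 with the station as a covariate and within station 1. Comp turned to 0.0045 with the station as a covariate and within station 1, and to 0.11 with the ratio as a covariate. The estimates with the station as a covariate and within station 1 are equal by construction, and otherwise the cause was not tested. Dim probe sets limit what Scx and Mkx can show: their standard errors were 0.83 and 0.89, against 0.29 for Thbs4.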
